A study of Mus musculus with 6 samples.

Results

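The 10 genes described here, Actn2, Ldb3, Tcap, Csrp3, Myoz2, Myot, Itgb1bp2, Pdlim5, Cryab and Xirp1, encode proteins of the muscle Z-disc and of the costamere. They were taken by name from a written list, and each matched 1 Ensembl gene among the 43629 genes counted. Their mRNA was measured by RNA-Seq in primary cultures of cells from the heart ventricles of CD-1 mouse embryos at embryonic day 13.5 (E13.5). The cultures were transfected after 48 h with 12 nM of a pool of 4 siRNAs against DNMT1, the maintenance DNA methyltransferase, or with 12 nM of a negative control siRNA, and were harvested 72 h later (3 cultures per treatment). The ventricles of each litter were pooled, cells that attached quickly to plastic were removed, and the harvested cells were sorted with an antibody to VCAM1, so each culture holds several embryos and no genotype differs between the groups. The treatment tag of the DNMT1 siRNA cultures names DNMT3a siRNA, whereas their titles and the study's methods name DNMT1. The titles were followed.

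The Z-disc is the plate that bounds each sarcomere, where actin filaments of opposite polarity are crosslinked by alpha-actinin and where titin is anchored. A second layer of PDZ-LIM, LIM, myozenin and palladin family proteins sits on alpha-actinin and links the plate to signaling proteins. The costamere is the site beneath the cell membrane where the outermost Z-discs are tied, through integrin and dystrophin complexes, to the extracellular matrix. Several of these genes have a muscle form and close relatives that are used in most cells.

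Most of the list was higher after DNMT1 siRNA. Among the 9 genes with enough reads to be tested, 7 rose, Actn2, Ldb3, Tcap, Myoz2, Itgb1bp2, Cryab and Xirp1, by 1.53-fold to 4.63-fold, and none fell. Across all 15470 genes tested, 4.26% rose and 2.23% fell by the same limits, an adjusted p below 0.05 and a fold change above 1.5 in edgeR's quasi-likelihood test. Csrp3 and Pdlim5 did not pass, and Pdlim5 was the single gene of the list with a lower mean after DNMT1 siRNA. Myot was nearly absent from both groups. The median log2 fold change of the 9 genes was 1.25, and that of all genes tested was -0.0049. All 3 DNMT1 siRNA cultures lay above all 3 controls for the 7 genes that rose (18.3% of all genes tested) and below them for Pdlim5 (17.7% of all genes tested). Of 9 cardiomyocyte marker genes, 6 rose in the same comparison. Against a null hypothesis of a 1.5-fold change (glmTreat), 2 of the 7, Itgb1bp2 and Xirp1, remained past the limit. With 1 culture left out, 4 to 8 of the genes rose, the fewest without DNMT1 siRNA replicate 1 and the most without negative siRNA replicate 2.

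**Figure D1:**
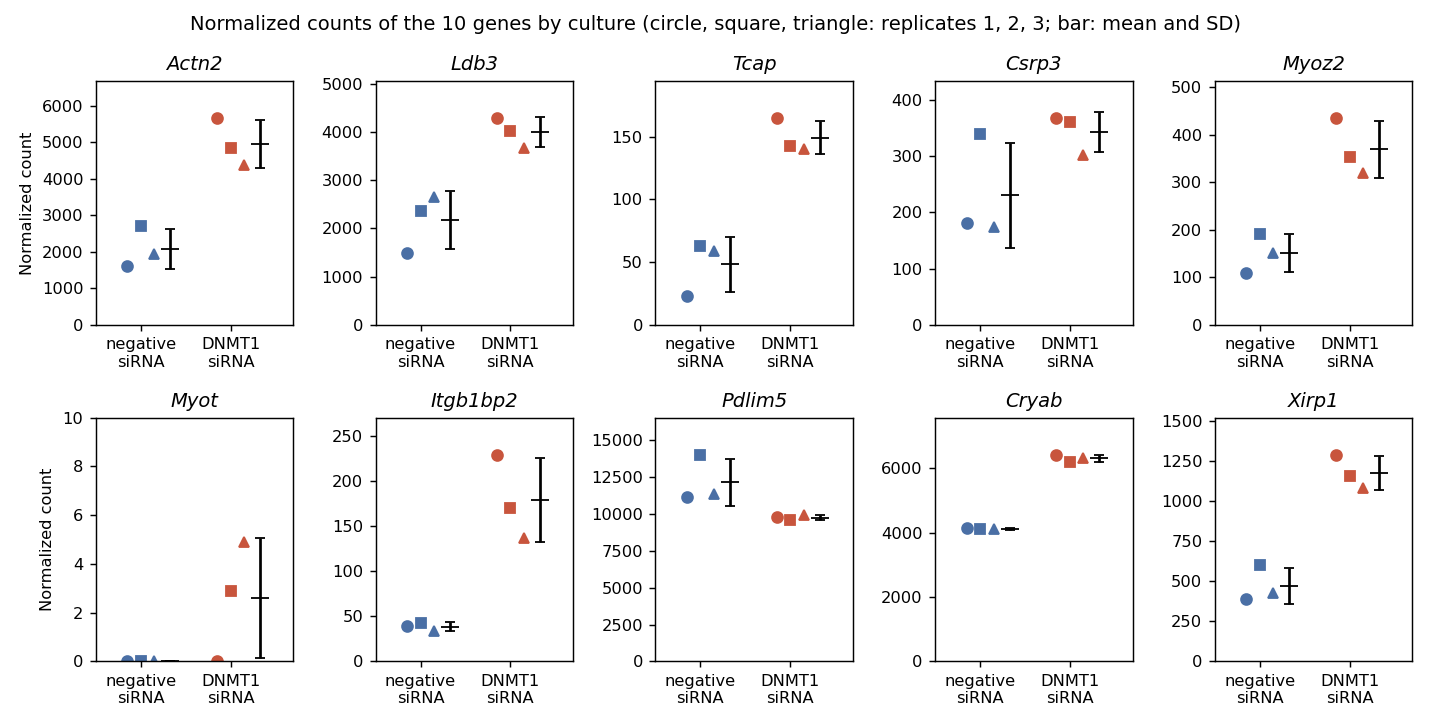
Normalized counts (vertical axis) of the 10 genes in each negative siRNA (blue) and DNMT1 siRNA (red) culture, with circles, squares and triangles for replicates 1, 2 and 3 and a bar for the mean and SD of 3 cultures. For 7 genes all DNMT1 siRNA cultures lay above all negative siRNA cultures, for Pdlim5 all lay below, and for Csrp3 the groups overlapped.

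Dnmt1 itself was measured at 3028 ± 367 normalized counts (SD, n = 3) in the negative siRNA cultures and 741 ± 65.8 in the DNMT1 siRNA cultures, 0.245 times the control level (adjusted p = 0.000192). Dnmt3a, the gene named by the conflicting tag, was measured at 5453 ± 510 and 6425 ± 73.9 (adjusted p = 0.0919). Reads on genes ranged from 27852412 to 35896018 in the negative siRNA libraries and from 13739561 to 16186310 in the DNMT1 siRNA libraries. Levels in RPKM are reads per kilobase of exon and per 1000000 of the effective (TMM-normalized) library size. All 9 cardiomyocyte marker genes examined were detected, and they summed to 460 to 601 RPKM in the negative siRNA cultures and to 1076 to 1367 RPKM after DNMT1 siRNA. Of the 9, Tnnt2, Myh6, Actc1, Nkx2-5, Ryr2 and Myl4 rose. Myh7 (log2 fold change 0.20, adjusted p = 0.787), Tnni1 (-0.18, adjusted p = 0.714) and Vcam1, the antigen of the sort (-0.26, adjusted p = 0.148), did not pass, and Vcam1 was lower in all DNMT1 siRNA cultures than in all controls. The cultures labeled as cardiomyocytes also held abundant fibroblast transcripts. The 8 fibroblast markers summed to 4601 to 7000 RPKM in the negative siRNA cultures and to 3478 to 3689 RPKM in the DNMT1 siRNA cultures, and none of the 8 was at 0. Col1a1, Col1a2 and Dcn fell. Endothelial, smooth muscle, epicardial and macrophage markers summed to 11.6 to 19.1, 2378 to 3616, 525 to 609 and 8.33 to 22.6 RPKM in the negative siRNA cultures, and to 18.0 to 21.002, 2019 to 2110, 593 to 622 and 7.34 to 10.3 RPKM after DNMT1 siRNA. Within these lists the genes did not all take one direction. Kdr and Emcn rose, and the endothelial genes Pecam1, Cdh5 and Tie1 had log2 fold changes of 0.87, 0.83 and 0.97 without passing. Tek alone of the endothelial list was lower, at -0.35 within the fold limit (adjusted p = 0.0373). Pdgfrb and Lyz2 fell. The smooth muscle genes Acta2, Tagln, Myh11 and Cnn1 were lower without passing both limits, at -0.51, -0.43, -1.49 and -1.03. Rgs5, from the same list as Pdgfrb, was at 1.10 without passing (adjusted p = 0.111). Skeletal muscle markers stayed low, at 2.27 to 3.99 and 5.28 to 6.11 RPKM, with Myod1 and Myog at 0 to 2 reads per library, and of them Myh1 rose. In bulk RNA a change in the number of cells of a type and a change in the RNA per cell cannot be told apart, and the part of these shifts in the results on the 10 genes was not tested. By staining at this dose and time, the study found fewer and larger cardiomyocytes but an unchanged percentage of cardiomyocytes in the culture. It also cites earlier flow cytometry in which most of the sorted cells were cardiomyocytes. The libraries used here have no cell counts of their own.

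Promoter sequences of 3 genes are shown because DNMT1 maintains methylation at CpG sites and because these windows run from few to many CpGs. RefSeq windows of 300 bases, from 250 bases before to 50 bases after the transcription start, were at hand for 5 of the 10 genes (Actn2, Ldb3, Csrp3, Myoz2 and Pdlim5), and no methylation was measured in the files used here. The 250 bases before the start are printed 5′ to 3′ on the strand of the gene, which is minus for all 3, with each CpG in capitals (GRCm38.p6). The Actn2 stretch is chr13:12340733-12340982, that of Myoz2 is chr3:123034988-123035237 and that of the first Pdlim5 window is chr3:142395697-142395946.
Actn2: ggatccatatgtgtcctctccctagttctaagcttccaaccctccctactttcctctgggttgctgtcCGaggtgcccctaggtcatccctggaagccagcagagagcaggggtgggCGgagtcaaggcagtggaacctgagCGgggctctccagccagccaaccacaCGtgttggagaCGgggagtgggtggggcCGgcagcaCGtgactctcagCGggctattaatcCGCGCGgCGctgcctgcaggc
Myoz2: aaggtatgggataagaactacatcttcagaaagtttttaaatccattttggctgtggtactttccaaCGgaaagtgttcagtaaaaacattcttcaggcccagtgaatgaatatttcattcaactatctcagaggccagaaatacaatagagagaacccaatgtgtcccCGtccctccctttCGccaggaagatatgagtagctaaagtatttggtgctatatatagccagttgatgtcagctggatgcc
Pdlim5: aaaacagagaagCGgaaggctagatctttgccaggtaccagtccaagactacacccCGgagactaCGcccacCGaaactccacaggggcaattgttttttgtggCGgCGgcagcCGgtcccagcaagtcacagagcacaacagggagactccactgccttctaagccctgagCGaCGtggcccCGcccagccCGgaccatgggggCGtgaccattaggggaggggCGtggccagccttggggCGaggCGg

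The Actn2 stretch held 12 CpGs and its whole 300-base window 19, more than 71.7% of the 32544 RefSeq windows, whose median was 7. In Pdlim5 the stretch held 15 and the window 22, more than 76.7% of windows, and a second Pdlim5 window held 2. Myoz2 had 3 in the stretch and 4 in the window. The windows of Ldb3 held 6 each, and those of Csrp3 held 6 and 4. Among the genes that rose, the window of Actn2 was above the median in CpG, those of Ldb3 were near it and that of Myoz2 was below it, and the richest window belonged to Pdlim5, which did not pass the test. Motif letters were searched on both strands of these windows. Actn2 held 3 matches to the E-box CANNTG, which 72.3% of all windows hold, and 2 of them, starting at positions -84 and -48 from the transcription start, enclosed a CpG. Myoz2 held a match to the MEF2 motif at positions -33 to -24 (0.6% of all windows hold one), a GATAAG at -241 to -236 (7.3%) and 2 E-boxes. Each Ldb3 window held the same CArG box, the letters bound by serum response factor, which 1.6% of windows hold. Csrp3 held 5 and 4 E-boxes in its windows, and Pdlim5 held 1 in its first. No window held the MCAT letters CATTCC, present in 14.6% of all windows. A match describes letters and not a bound site.

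Alpha-actinin crosslinks the actin filaments of the Z-disc, and Actn2 encodes a sarcomeric form found in cardiac and skeletal muscle (ENSMUSG00000052374, chr13:12269426-12340760, minus strand, GRCm38). Actn2 was counted at 1623, 2693 and 1942 normalized reads in negative siRNA replicates 1, 2 and 3, and at 5663, 4833.5 and 4377 in the 3 DNMT1 siRNA cultures. Every DNMT1 siRNA culture was above every negative siRNA culture, the highest control being replicate 2. The mean went from 2086 ± 549 to 4958 ± 652 (SD, n = 3), a log2 fold change of 1.25 with a standard error of 0.18 (2.38-fold, quasi-likelihood adjusted p = 0.00473). Actn1, a non-muscle alpha-actinin, was at 27135 ± 501 and 21621 ± 366 normalized counts, a log2 fold change of -0.33 that had an adjusted p of 0.0174 but lay within the fold limit. Actn4, the other non-muscle form, differed by -0.10 on the log2 scale (adjusted p = 0.398), and Actn3, the fast skeletal form, had 0.70 (adjusted p = 0.144). Within the 4 alpha-actinins, Actn2 made up 4.90%, 7.69% and 5.62% of the reads per kilobase in the negative siRNA cultures and 17.3%, 14.9% and 13.5% in the DNMT1 siRNA cultures. That share did not overlap between groups (6.07 ± 1.45% against 15.2 ± 1.88%, exact permutation test, two-sided p = 0.1, the smallest that 3 against 3 allows).

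Ldb3 (also called ZASP or Cypher) and Pdlim5 (ENH) are PDZ-LIM proteins that bind alpha-actinin through a PDZ domain and protein kinase C through LIM domains. At the level of whole genes Ldb3 rose, and Pdlim5 did not pass the test. The study listed Pdlim5 among sarcomere genes with altered exon usage after DNMT1 siRNA, which counts per gene do not show. Exon usage was not examined here. Ldb3 (ENSMUSG00000021798, chr14:34526603-34588682, minus strand) was at 1488, 2369 and 2644 normalized counts in the negative siRNA cultures and at 4287, 4024.5 and 3678 after DNMT1 siRNA. Its groups did not overlap, and the mean rose from 2167 ± 604 to 3997 ± 305, a log2 fold change of 0.88 (SE 0.19, 1.85-fold, adjusted p = 0.0215). The Ldb3 call was lost when any of the DNMT1 siRNA cultures was left out (adjusted p = 0.0875, 0.0963 and 0.0681 without replicates 1, 2 and 3, with log2 fold changes of 0.81, 0.88 and 0.93). Pdlim5 (ENSMUSG00000028273, chr3:142239590-142395696, minus strand) was at 11134, 14021 and 11336 normalized counts in the negative siRNA cultures and at 9771, 9599.9 and 9939 in the DNMT1 siRNA cultures. All 3 DNMT1 siRNA cultures were below all controls, but the difference was small, from 12164 ± 1611.5 to 9770.1 ± 169.5 (0.803 times, log2 fold change -0.32, SE 0.10, 95% interval -0.54 to -0.10, adjusted p = 0.0686). DESeq2 gave Pdlim5 an adjusted p of 0.0131 with a log2 fold change of -0.34, still within the fold limit. Of the other 5 PDZ-LIM relatives (Pdlim1, Pdlim2, Pdlim3, Pdlim4 and Pdlim7), none passed the limits, with log2 fold changes from -0.06 in Pdlim7 to 0.36 in Pdlim3. As a share of the 7 PDZ-LIM genes in reads per kilobase, Ldb3 went from 9.49 ± 2.40% to 17.3 ± 0.99% and Pdlim5 from 36.7 ± 2.29% to 29.1 ± 0.92%, and neither share overlapped between the groups (exact permutation p = 0.1 for each). Both are parts of the same sum, so a higher Ldb3 share lowers that of Pdlim5, and the 2 tests are not independent.

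Tcap (telethonin) caps the ends of paired titin molecules at the Z-disc, and Csrp3 (muscle LIM protein) binds it there. Tcap (ENSMUSG00000007877, chr11:98383811-98384953, plus strand) was low, at 22.8, 62.7 and 59.1 normalized counts in the negative siRNA cultures and 165, 143 and 141 in the DNMT1 siRNA cultures. These values rest on 39, 91 and 76 reads in the controls and 123, 98 and 86 reads after DNMT1 siRNA. Negative siRNA replicate 1 stood lowest, and all DNMT1 siRNA cultures lay above all controls. The mean rose from 48.2 ± 22.1 to 149.5 ± 13.4 (log2 fold change 1.65, SE 0.34, 3.13-fold, adjusted p = 0.0198). As with Ldb3, the Tcap call was lost without any of the DNMT1 siRNA cultures (adjusted p = 0.0821, 0.0841 and 0.0723 without replicates 1, 2 and 3, with log2 fold changes of 1.54, 1.67 and 1.67). Csrp3 (ENSMUSG00000030470, chr7:48830398-48848033, minus strand) was at 180.3, 338.5 and 173 normalized counts in the negative siRNA cultures and at 367, 360.0 and 303 in the DNMT1 siRNA cultures. The groups overlapped because negative siRNA replicate 2 reached the level of the DNMT1 siRNA cultures. Its log2 fold change of 0.57 (SE 0.25, 95% interval -0.0032 to 1.15, means 231 ± 93.4 and 343 ± 35.5) had an adjusted p of 0.174. Without negative siRNA replicate 2 the log2 fold change of Csrp3 was 0.96 with an adjusted p of 0.00145, past both limits. Csrp3 did not pass when any other culture was left out (log2 fold changes 0.41 to 0.64, adjusted p = 0.264 to 0.381). Its relatives Csrp1 and Csrp2, LIM proteins of smooth muscle and other cells, had log2 fold changes of -0.23 (adjusted p = 0.221) and -0.36 (adjusted p = 0.289). Csrp3 was a small part of its family of 3, at 1.15 ± 0.23% of the reads per kilobase in the negative siRNA cultures and 2.07 ± 0.19% in the DNMT1 siRNA cultures, and these shares did not overlap (exact permutation p = 0.1).

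Myoz2 (calsarcin-1) tethers calcineurin to alpha-actinin in heart and slow muscle, and Myot (myotilin) binds alpha-actinin and filamin C. Myoz2 (ENSMUSG00000028116, chr3:123006206-123035015, minus strand) was at 110, 190.3 and 151 normalized counts in the negative siRNA cultures and at 434.5, 353 and 319 after DNMT1 siRNA. Its groups did not overlap, and the mean rose from 150.3 ± 40.3 to 369 ± 59.4 (log2 fold change 1.30, SE 0.21, 2.46-fold, adjusted p = 0.00786). The relatives Myoz1 and Myoz3, known from skeletal muscle, had too few reads to be tested, at 0 to 61 reads per library, so that Myoz2 carried 82.6 ± 10.2% of the reads per kilobase of the 3 myozenins in the negative siRNA cultures and 93.4 ± 4.22% in the DNMT1 siRNA cultures. These shares overlapped (exact permutation p = 0.2). Myot (ENSMUSG00000024471, chr18:44334074-44355724, plus strand) had 0 reads in every negative siRNA library and 0, 2 and 3 reads in the DNMT1 siRNA libraries. A count of 0 allows up to 3 reads, which is 0.081 to 0.107 CPM (counts per 1000000 of the effective library size) in the negative siRNA libraries and 0.185 CPM in DNMT1 siRNA replicate 1. The 2 and 3 reads of the other DNMT1 siRNA libraries did not exceed that number of reads, so a difference in Myot was not detectable at this depth and no fold is given. Its relative Mypn (myopalladin), which binds nebulin-type proteins and alpha-actinin at the cardiac Z-disc, was the one family relative past the limits. Mypn was at 33.3, 40.7 and 49.0 normalized counts in the negative siRNA cultures and at 201, 175 and 136 in the DNMT1 siRNA cultures, without overlap (log2 fold change 2.07, SE 0.22, 4.19-fold, adjusted p = 0.00156). Palld (palladin), the widely expressed relative, differed by -0.07 on the log2 scale (adjusted p = 0.813).

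Itgb1bp2 (melusin) binds the tail of integrin beta 1 at the costamere and is known as a striated muscle protein. It had the largest fold change of the 9 genes tested (ENSMUSG00000031312, chrX:101449088-101453541, plus strand). Itgb1bp2 was at 39.7, 42.7 and 33.4 normalized counts in the negative siRNA cultures and at 229, 170.5 and 137 in the DNMT1 siRNA cultures. Few reads lie behind these values, 68, 62 and 43 in the controls and 171, 117 and 84 after DNMT1 siRNA. The lowest DNMT1 siRNA culture was well above the highest control, and the mean rose from 38.6 ± 4.70 to 179 ± 46.5 (log2 fold change 2.21, SE 0.22, 4.63-fold, adjusted p = 0.00141). Chordc1, the widely expressed relative that shares its CHORD domains, was at 1091 ± 159 and 1108 ± 62.0 normalized counts (adjusted p = 0.913). The share of Itgb1bp2 in the reads per kilobase of this pair went from 13.1 ± 2.82% to 39.8 ± 5.46%, without overlap (exact permutation p = 0.1). The difference of 26.8 points was 10.3 points when counts were not divided by length. Its binding partner Itgb1 differed by -0.22 on the log2 scale (adjusted p = 0.0808). Of 4 further genes whose proteins work with melusin, Hsp90aa1, Hsp90ab1, Iqgap1 and Sugt1, none passed the limits.

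Xirp1 (Xin) binds actin and is found at myotendinous and intercalated disc junctions of muscle cells. Xirp1 (ENSMUSG00000079243, chr9:120013755-120023598, minus strand) was at 391, 601 and 425 normalized counts in the negative siRNA cultures and at 1290.0, 1157 and 1084 after DNMT1 siRNA. The groups lay far apart relative to their spread, with means of 472.5 ± 113 and 1177 ± 104 (log2 fold change 1.32, SE 0.16, 2.49-fold, adjusted p = 0.00253). Its relative Xirp2 was at 84.6, 117 and 201 normalized counts in the negative siRNA cultures and at 240.0, 268 and 260.0 in the DNMT1 siRNA cultures. Xirp2 did not pass, with a log2 fold change of 0.94, a 95% interval of 0.30 to 1.58 and an adjusted p of 0.0643. Xirp1 carried 87.7 ± 5.55% and 90.4 ± 1.16% of the reads per kilobase of the pair, shares that overlapped (exact permutation p = 0.8).

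Cryab (alpha-B crystallin) is a small heat shock protein that binds desmin and titin at the Z-disc under stress. Cryab (ENSMUSG00000032060, chr9:50751325-50756636, plus strand) was at 4154, 4108 and 4108 normalized counts in the negative siRNA cultures and at 6416, 6202 and 6315 in the DNMT1 siRNA cultures. It had the tightest replicates of the list, and its groups were separated by far more than their spread (4123 ± 26.4 and 6311 ± 107). Its log2 fold change of 0.61 (SE 0.06, 1.53-fold, adjusted p = 0.00112) was just above the fold limit of 0.585 on the log2 scale, and Csrp3 at 0.57 lay just under it. Cryab fell under this limit without DNMT1 siRNA replicate 1 (0.58, adjusted p = 0.0171), with no normalization beyond library size (0.57) and with no filter on low counts (0.58). Cryab shares 252 exonic bases with Hspb2, which starts beside it on the opposite strand, and the library kit did not mark the strand. Reads that fell on more than 1 gene were left uncounted by the counter, and they made up 3.58% to 3.65% of uniquely mapped reads in the negative siRNA libraries and 6.02% to 6.35% in the DNMT1 siRNA libraries. Hspb2 itself differed by 0.61 on the log2 scale (adjusted p = 0.144). Of the other small heat shock genes, Hspb7, the cardiac form, was at 6069 ± 1035 and 8526 ± 346 (log2 fold change 0.49, adjusted p = 0.0310, within the fold limit), and Hspb1, Hspb6 and Hspb8 had log2 fold changes from 0.09 to 0.22, none with an adjusted p below 0.05. Cryaa had no reads in any library, and Hspb3 had 1 to 10. The share of Cryab among the 8 small heat shock genes overlapped between groups, at 40.4 ± 4.19% and 44.1 ± 0.76% (exact permutation p = 0.2).

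**Figure D2:**
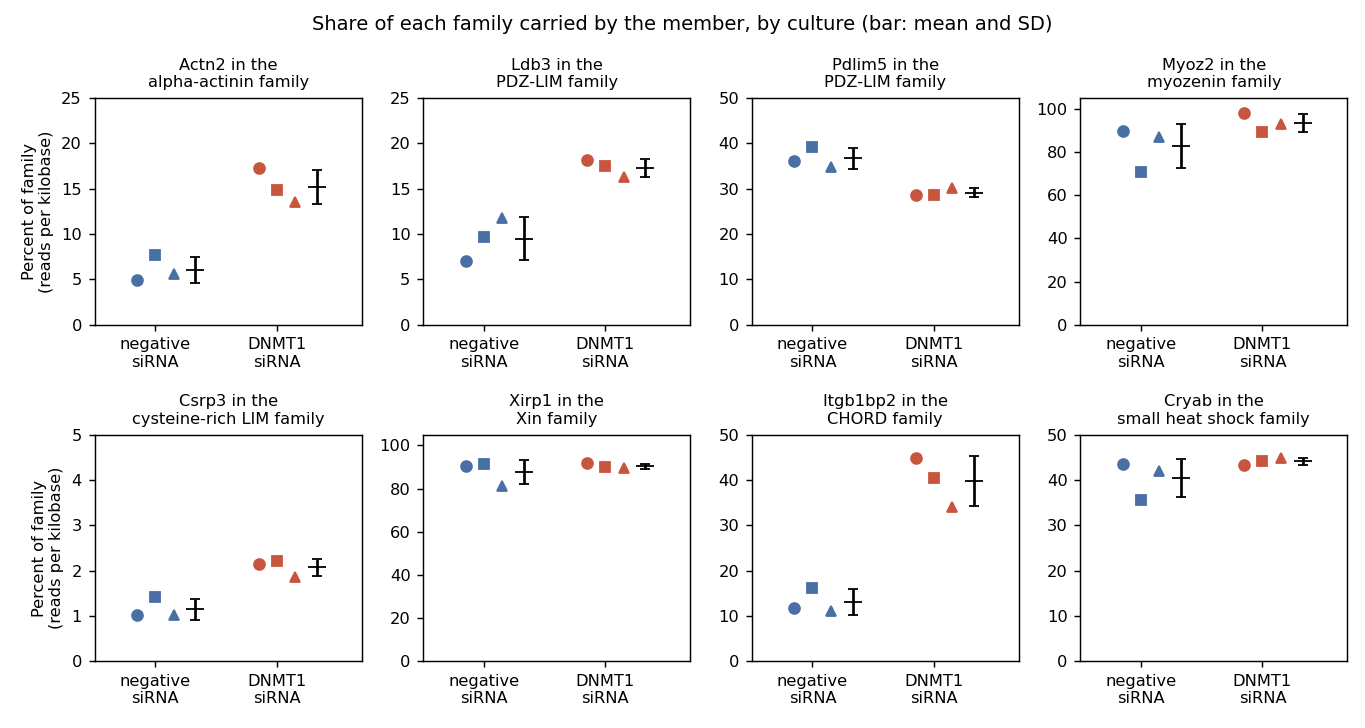
Percent of the family's summed reads per kilobase carried by each gene of the list (vertical axis) in each culture of the 2 treatments (negative siRNA blue, DNMT1 siRNA red; circles, squares and triangles are replicates 1, 2 and 3, and bars are means and SD). The shares of Actn2, Ldb3, Csrp3 and Itgb1bp2 were higher in all DNMT1 siRNA cultures than in all controls, that of Pdlim5 was lower, and those of Myoz2, Xirp1 and Cryab overlapped.

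Levels were compared between genes as RPKM, over the union of the exons of each gene, which overstates the length of genes with several isoforms. In the negative siRNA cultures Cryab was highest (128 ± 0.82 RPKM), followed by Pdlim5 (63.1 ± 8.36), Actn2 (25.3 ± 6.67), Ldb3 (16.4 ± 4.56), Csrp3 (3.98 ± 1.61), Xirp1 (3.73 ± 0.89), Tcap (2.34 ± 1.07), Myoz2 (2.02 ± 0.54), Itgb1bp2 (0.99 ± 0.12) and Myot (0). Neighbors in this order overlapped for Actn2 and Ldb3, for Csrp3 and Xirp1 and for Tcap and Myoz2. After DNMT1 siRNA the order was Cryab (197 ± 3.34 RPKM), Actn2 (60.2 ± 7.91), Pdlim5 (50.7 ± 0.88), Ldb3 (30.2 ± 2.30), Xirp1 (9.29 ± 0.82), Tcap (7.26 ± 0.65), Csrp3 (5.92 ± 0.61), Myoz2 (4.96 ± 0.80), Itgb1bp2 (4.58 ± 1.19) and Myot (0.054 ± 0.051). Here Csrp3 and Myoz2 overlapped, as did Myoz2 and Itgb1bp2. Actn2 moved above Pdlim5 in the order, and Xirp1 and Tcap above Csrp3. In reads, Pdlim5 alone supplied 56.6% of all reads on the 10 genes in the negative siRNA cultures and 35.9% after DNMT1 siRNA. The 10 genes together summed to 882, 1125 and 961 CPM in the negative siRNA cultures and 1318, 1236 and 1211 in the DNMT1 siRNA cultures. Without Pdlim5 the sum was 369, 479 and 439 against 868, 794 and 753 CPM, so the summed level of the other genes was higher in every DNMT1 siRNA culture (exact permutation p = 0.1 for either sum).

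Other genes of the same structures were examined from lists written by structure, with earlier results of these data known. Of 22 further Z-disc genes, 21 were tested, 6 rose (4.26% of all genes tested) and none fell, and the median log2 fold change was 0.33. The 6 included Ttn (titin, log2 fold change 1.98, adjusted p = 0.00118), the giant filament that spans the sarcomere from the Z-disc to the M-band. Nrap (1.52, adjusted p = 0.00199), Nebl (nebulette, 1.30, adjusted p = 0.000760) and Synpo2l (1.20, adjusted p = 0.00211), which bind actin or alpha-actinin, rose as well. So did Cmya5 (myospryn, 1.19, adjusted p = 0.00338) and Ankrd1 (a titin-associated ankyrin repeat protein, 0.90, adjusted p = 0.00166). Des (desmin) and Flnc (filamin C), both central to the Z-disc and present in other contractile cells too, did not pass. Their log2 fold changes were 0.12 (adjusted p = 0.809) and 0.21 (adjusted p = 0.196). Des varied widely among the negative siRNA cultures, at 4063, 9062 and 4435 normalized counts, against 6984, 6360 and 5726 after DNMT1 siRNA. Synpo2 and Fhl1 had adjusted p values of 0.0291 and 0.0249 with log2 fold changes of -0.36 and -0.32, and Synm and Bag3 had 0.0284 and 0.0250 with 0.56 and 0.37, all within the fold limit. These 6 rose in the cultures in which the cardiomyocyte markers summed to 1076 to 1367 RPKM, against 460 to 601 RPKM in the controls. The actin capping genes Capza1, Capza2 and Capzb did not pass.

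The costamere list holds mainly genes used in most adherent cells. Of 23 tested, 3 rose and 1 fell (4.26% and 2.23% of all genes tested), and the median log2 fold change was 0.10. Ank3 (ankyrin-G, log2 fold change 0.82, adjusted p = 0.00253), Sorbs2 (a vinculin-binding adaptor of the Z-disc and intercalated disc, 0.74, adjusted p = 0.00150) and Parvb (beta-parvin, 0.61, adjusted p = 0.0178) rose. Itga5, the fibronectin receptor subunit, was at 5059, 10420.4 and 6992 normalized counts in the negative siRNA cultures and at 4299, 4211 and 4112 in the DNMT1 siRNA cultures, and fell by 0.83 on the log2 scale (adjusted p = 0.0443). That call of Itga5 was lost when any culture other than negative siRNA replicate 1 was left out, and 2 to 3 genes of the list rose when 1 culture was left out. Vcl (vinculin) and Tln1 (talin 1), the main links from integrin to actin, had log2 fold changes of -0.08 (adjusted p = 0.501) and 0.10 (adjusted p = 0.546). Of the dystrophin complex, Dmd and Dag1 had adjusted p values of 0.0312 and 0.0193 with log2 fold changes of 0.34 and 0.36, within the fold limit, as did Tln2 (0.0219, 0.45), while Itgb5 (0.0301, -0.31) and Lims1 (0.0252, -0.32) were lower within it. Among the 23 family relatives of the 10 genes, 19 were tested and only Mypn passed the limits, a share near the 4.26% of all genes that rose, and their median log2 fold change was 0.09.

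**Figure D3:**
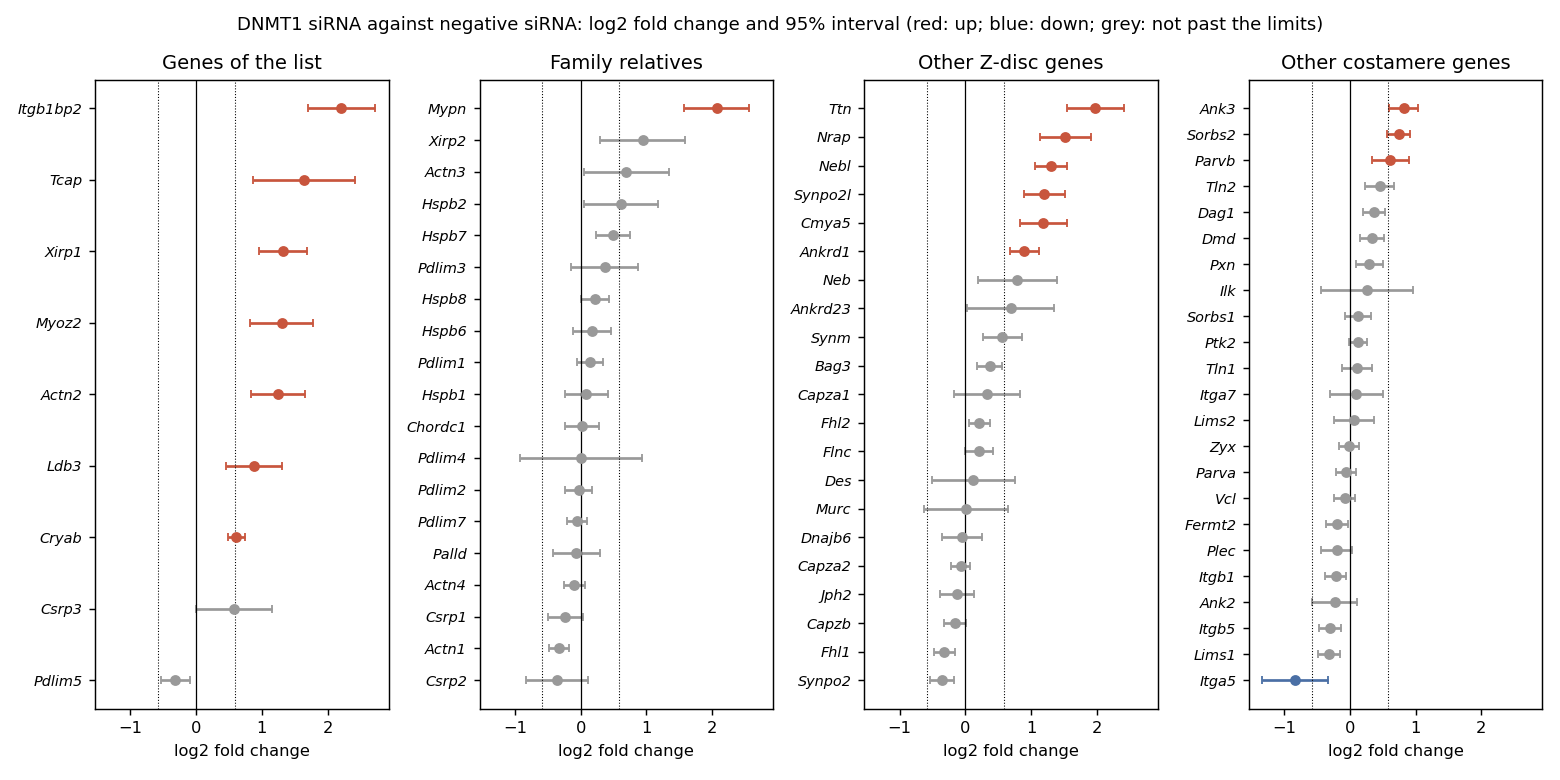
Log2 fold change (horizontal axis, DNMT1 siRNA against negative siRNA) with its 95% interval for the tested genes of 4 lists, red for genes that rose, blue for genes that fell and grey for genes that did not pass. Dotted lines mark the 1.5-fold limit, and the 9 tested genes of the list run from -0.32 (Pdlim5) to 2.21 (Itgb1bp2), with 7 in red, against 1 of 19 relatives, 6 of 21 other Z-disc genes, 3 of 23 other costamere genes and 4.26% of all genes tested.

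Because the mean of the cardiomyocyte markers was higher after DNMT1 siRNA, each gene was also expressed relative to them. The reference was the mean log2 level of 8 of the markers, leaving out Vcam1, the antigen of the sort. That mean was 6.53, 7.19 and 6.68 in the negative siRNA cultures and 7.87, 7.81 and 7.54 in the DNMT1 siRNA cultures, a difference of 0.94. The 8 markers differed widely, with log2 fold changes of 1.605 (Ryr2), 1.54 (Actc1), 1.41 (Myh6), 1.11 (Myl4), 0.80 (Nkx2-5), 0.61 (Tnnt2), 0.20 (Myh7) and -0.18 (Tnni1). Ryr2, Actc1 and Myh6 rose by more than Xirp1 (1.32), Myoz2 (1.30) and Actn2 (1.25), so the ratios below depend on the markers chosen. Relative to the mean of the 8, Itgb1bp2 was higher by 1.20 on the log2 scale after DNMT1 siRNA, Tcap by 0.78, Xirp1 by 0.40, Myoz2 by 0.37 and Actn2 by 0.34, each without overlap between the groups. Ldb3 differed by -0.015 with overlapping groups (exact permutation p = 1.0). Csrp3 (-0.30) and Pdlim5 (-1.25) were lower relative to the markers in all DNMT1 siRNA cultures, and Cryab (-0.32) overlapped (exact permutation p = 0.2). For each of the 7 genes without overlap the exact permutation p was 0.1. Of all genes tested, 1.11% lay above in this ratio without overlap and 74.1% lay below, as the reference itself was higher, so that the position of Csrp3 and Pdlim5 was that of most genes. Csrp3, which had a log2 difference of 0.57 against all reads, was at -0.30 against the markers, and the sign also turned for Ldb3 and Cryab, whose groups overlapped in this ratio.

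**Figure D4:**
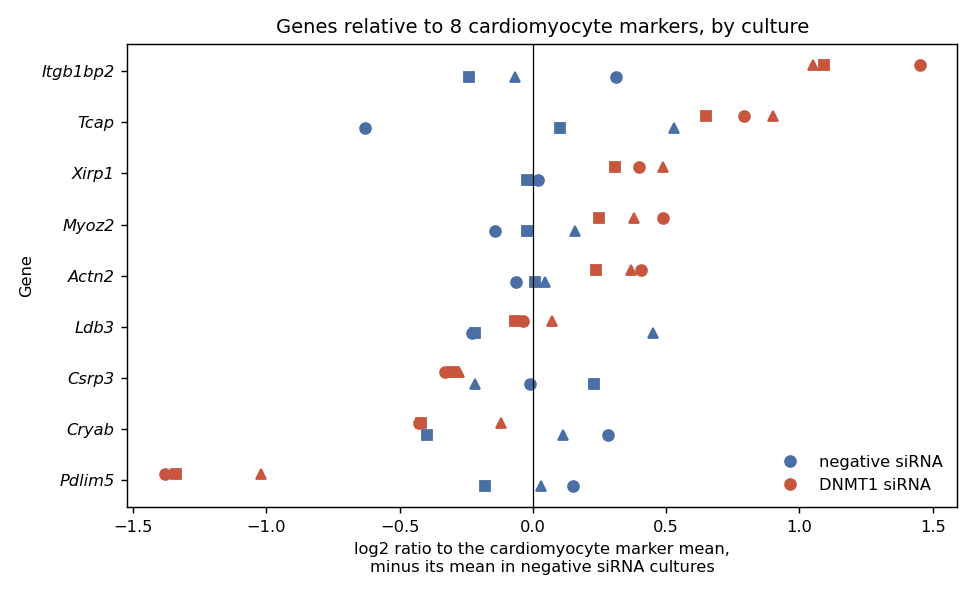
Log2 ratio of each tested gene to the mean of 8 cardiomyocyte markers, minus the gene's mean ratio in the negative siRNA cultures (horizontal axis), by gene (vertical axis), with 1 symbol per culture (blue negative siRNA, red DNMT1 siRNA). Itgb1bp2, Tcap, Xirp1, Myoz2 and Actn2 lie to the right in every DNMT1 siRNA culture, Csrp3 and Pdlim5 lie to the left, and Ldb3 and Cryab overlap.

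The genes also varied together among cultures of the same treatment. Negative siRNA replicate 2 was the highest control for 7 of the 9 tested genes, whereas it was the highest for 38.1% of all genes tested, and negative siRNA replicate 1 was the lowest for 6 (33.6% of all genes). Among the DNMT1 siRNA cultures, replicate 1 was highest for 8 of the 9 (33.1% of all genes) and replicate 3 lowest for 7 (34.9%). Within each treatment, the cardiomyocyte marker mean was highest in the same culture, negative siRNA replicate 2 or DNMT1 siRNA replicate 1. The median SD over cultures, on the scale of log2 CPM, was 0.37 for the 9 genes in the negative siRNA cultures and 0.13 in the DNMT1 siRNA cultures, against 0.17 and 0.10 for all genes tested. By Pearson correlation over the 6 cultures with the mean standardized level of the 9 genes, the most similar of 9870 well-expressed genes outside the lists were Mpi (r = 0.997), Mb (r = 0.997) and Trim72 (r = 0.996). Mpi encodes an enzyme of mannose metabolism and did not pass the limits (log2 fold change 0.31, adjusted p = 0.0541), whereas Mb (myoglobin, 1.59, 3.01-fold, adjusted p = 0.0199) and Trim72 (a muscle membrane repair protein, 1.25, 2.38-fold, adjusted p = 0.0109) did. These correlations carry the difference between the treatments, since the same 6 libraries supply both sides, and are given as a description.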

How the data were processed

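RNA was sequenced from 6 cultures in 1 pooled run of single-end reads with a kit that did not mark strand. The authors checked and cleaned the reads with FastQC, aligned them by TopHat2 to mm10 (GRCm38) and used HTSeq to count reads on Ensembl genes. They deposited the raw counts of each library (tool versions and the counter's strand setting are not given in the sources used here). Gene symbols, positions and exon lengths came from GENCODE M21 (GRCm38), which matched 42548 of 43629 identifiers, and promoter windows from RefSeq (GRCm38.p6).

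Counts on genes were fitted with edgeR 4.0.16 in R 4.3.3 (TMM normalization, filterByExpr with a minimum count of 10 and total of 15, quasi-likelihood F test, treatment as the sole term, Benjamini-Hochberg adjustment over 15470 genes). A gene rose or fell at an adjusted p below 0.05 and a fold change above 1.5. Standard errors were derived from the F statistic, and intervals are 95%. Normalized counts are counts divided by the effective library size and scaled to its geometric mean. Single quantities were compared by exact two-sided permutation tests over the 6 cultures (scipy 1.17.1), which with 3 against 3 cannot go below 0.1. The sources do not say that the cultures of a treatment came from separate litters, so p-values measure the spread between these cultures, which may be technical. Within each treatment, no 2 libraries agreed within sampling noise. The chi-square per degree of freedom was 26.4 to 54.5 between negative siRNA libraries and 2.7 to 9.86 between DNMT1 siRNA libraries, lowest for DNMT1 siRNA replicates 2 and 3. This ratio also grows with depth, which was lower in the DNMT1 siRNA libraries. The fit was tested on simulated counts.

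All 10 genes were named, with their family relatives, the genes of the other lists that passed the limits, Dnmt1, and the 3 genes most alike. Further genes of these lists (those within the fold limit or beside a named partner), and Dnmt3a, were named after their values were seen. Of the further Z-disc genes, 1 is not reported here and was left out of that list's counts. The members and lists were chosen with earlier results of these data known. Alternatives were DESeq2 1.42.0, the exact test, glmTreat, other normalizations and filters, the replicate number as a block, no fold limit, each culture left out, and levels relative to cardiomyocyte markers.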

Additional observations from a re-analysis of the deposited data

Results flagged for a closer look

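A signal outside the counted exons differed between the treatments. Uniquely mapped reads outside annotated exons made up 29.3 ± 4.23% (SD, n = 3, range 24.4% to 31.95%) in the DNMT1 siRNA libraries and 16.4 ± 1.58% (range 14.6% to 17.5%) in the negative siRNA libraries, without overlap. These reads enter no value for the 10 genes, and the part of this difference in their results was not tested.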

How the results depend on the processing

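The same 7 genes of the list rose with DESeq2, the exact test, RLE normalization, a filter of 10 counts in every sample, the replicate block and no fold limit. Depth limits Tcap, Itgb1bp2 and Myot most, and no methylation, protein or cell count is in the files used here. With 1 culture left out, 4 to 8 genes rose, and over all genes 255 to 823 rose and 112 to 472 fell. Among relatives 1 to 4 rose, and among costamere genes 0 to 1 fell. In glmTreat 2 genes of the list, 140 of all genes and 0 costamere genes rose, and 36 and 0 fell. With no filter on low counts 994 genes rose and 701 fell, 3 of them relatives that rose, while the fitted log2 value of Myot was 4.48 (adjusted p = 0.107), which depends on the prior count. Without the fold limit 1054 rose and 874 fell, with 2 relatives up and 1 down, 6 costamere genes up and 3 down, and 2 Z-disc genes down. DESeq2 and the exact test each called 2 relatives up. Correlations of the deviations of same-numbered cultures were 0.0064, -0.021 and 0.027, against -0.076 to 0.065 for differently numbered ones. They showed no pairing by replicate number but, taken over all genes at once, cannot exclude one. With the replicate block 513 genes rose and 285 fell (499 and 263 of them called without it), 2 relatives rose and 0 costamere genes fell. From counts not divided by length, the shares of Actn2, Csrp3 and Itgb1bp2 rose by 6.47, 1.23 and 10.3 points, against 9.16, 0.92 and 26.8. The difference in the Xirp1 share, 2.66 points, ran from -0.53 without negative siRNA replicate 3 to 4.47 without replicate 2. Relative to the cardiomyocyte markers, an alternative chosen after seeing the data, the log2 difference was -0.015 for Ldb3, -0.323 for Cryab, -0.302 for Csrp3 and -1.25 for Pdlim5, and 0.34 (Actn2) to 1.20 (Itgb1bp2) for the other 5, which stayed higher without overlap. The median log2 fold change of all genes was -0.0072 with RLE normalization and -0.045 with library size only. It was 0.139 with DESeq2 and 0.113 with no filter, both taken over more genes. The causes of these changes were not tested.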
